A study of Mus musculus with 2 samples.

Results

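The miR-302 and miR-290 clusters are the microRNA (miRNA) genes best known from mouse embryonic stem cells, and the 10 genes described here are Mir302a, Mir302b, Mir302c and Mir302d on chromosome 3 and Mir290a, Mir291a, Mir292, Mir293, Mir294 and Mir295 on chromosome 7. They were chosen by gene name, and all 10 had a row among the 1973 miRNA genes counted. MicroRNA-seq of RNA below 30 nucleotides was done on the hindbrain of newborn B6NCrl mice at postnatal day 0, with no treatment and no genotype named. The 2 libraries, 1 from pup 1 and 1 from pup 3, each came from a single hindbrain and form 1 group, so no contrast between conditions exists. The labels name separate pups but give both the same donor identifier, and with 2 libraries the spread between them may be technical as well as biological.

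Both clusters are transcribed as precursors that hold several hairpins, and each hairpin can give a mature miRNA from its 5′ arm (5p) and its 3′ arm (3p). A mature miRNA finds its targets mainly through its seed, here bases 2 to 8. In embryonic stem cells several of these miRNAs share a seed, keep the cells cycling through the G1 to S step and restrain inhibitors of the cell cycle such as Cdkn1a, Rbl2 and Lats2. The miR-290 cluster is typical of the early embryo and of naive stem cells, and the miR-302 cluster of the later, primed epiblast and of the early neuroepithelium. Mice without the miR-302 cluster fail to close the neural tube. Most differentiated tissues are known to express little of either.

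The 3p arms carry the sequence that links both clusters, and they are shown because every level below is a gene count that joins both arms of a hairpin. Seeds are in capitals, with mature sequences from RefSeq on GRCm38.p6.
miR-302b-3p: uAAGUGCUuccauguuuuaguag
miR-302d-3p: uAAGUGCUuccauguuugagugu
miR-302c-3p: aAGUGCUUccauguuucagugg
miR-291a-3p: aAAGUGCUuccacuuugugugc
miR-294-3p: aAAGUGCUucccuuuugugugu
miR-295-3p: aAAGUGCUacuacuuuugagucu
miR-290a-3p: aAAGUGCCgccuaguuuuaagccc
miR-293-3p: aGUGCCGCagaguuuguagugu
Among the 3p arms with a RefSeq sequence here, the seed AAGUGCU was common to 5 members. They were Mir302b and Mir302d from one cluster and Mir291a, Mir294 and Mir295 from the other. In miR-302c-3p the same letters begin at base 1 and not at base 2, so its seed window reads AGUGCUU. The miR-290a-3p seed ends in C, and the miR-293-3p seed, GUGCCGC, lacks the motif. No mature sequence of miR-302a-3p or miR-292a-3p was held in the RefSeq table, so they are not printed and their seeds were not compared. The Mir302a hairpin shared 18 bases with miR-302b-3p, so Mir302a is not shown to lack the seed.

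The 5p arms differ between the clusters and group the members in another way, again with the seed in capitals.
miR-302a-5p: aCUUAAACgugguuguacuugc
miR-302b-5p: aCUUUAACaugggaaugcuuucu
miR-302c-5p: gCUUUAACaugggguuaccugc
miR-302d-5p: aCUUUAACauggaggcacuugcu
miR-290a-5p: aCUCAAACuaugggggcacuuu
miR-292a-5p: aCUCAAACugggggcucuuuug
miR-293-5p: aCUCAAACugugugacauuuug
Mir302b, Mir302c and Mir302d shared the 5p seed CUUUAAC, and Mir290a, Mir292 and Mir293 shared CUCAAAC.

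On GRCm38, the assembly of mm10, the 4 miR-302 hairpins lie head to tail on the plus strand at chr3:127545228-127545689, in the order Mir302b, Mir302c, Mir302a and Mir302d. This stretch of 462 bases is within an intron of Larp7, a gene for a La-related RNA-binding protein, which is annotated on the minus strand. The 6 miR-290 hairpins lie on the plus strand at chr7:3218626-3220841, a stretch of 2216 bases. Mir291a, Mir292, Mir293, Mir294 and Mir295 overlap annotated exons of Nlrp12 on the minus strand, and Mir290a does not. The hairpin of highest level in the miR-290 cluster and that of second highest level in the miR-302 cluster are given whole to show the spacing of the arms, with both mature arms in capitals.
Mir294: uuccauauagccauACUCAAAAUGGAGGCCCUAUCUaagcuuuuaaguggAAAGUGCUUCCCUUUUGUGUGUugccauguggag
Mir302d: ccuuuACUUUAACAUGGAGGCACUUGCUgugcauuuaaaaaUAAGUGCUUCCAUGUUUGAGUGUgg

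Levels are given as CPM, the reads on a gene's own strand per 1000000 such reads over all miRNA genes of the library. Those reads totalled 4906127 in pup 1 and 6238680 in pup 3. Where no read was counted, the level could still be as high as 3 counts of the total, or 0.611 CPM for pup 1 and 0.481 CPM for pup 3. Such limits, and the exact binomial 95% intervals below, cover counting error only. Of the marker lists for the labelled tissue, Hox cluster miRNAs (5 of 6 genes detected, 52557 CPM in pup 1 and 34978 CPM in pup 3 in sum) and neural miRNAs (5 of 8 genes) were present. The lists for choroid plexus, vessels, erythroid cells and epithelium were detected in full, and that for muscle with 1 of 4 genes. Reads with several matching places were counted for no gene, so gene copies, as in the neural and muscle lists, may be undercounted.

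The newborn hindbrain held a low but clear signal of the miR-302 cluster and a far lower one of the miR-290 cluster. All 4 miR-302 members and 2 of the 6 miR-290 members, Mir293 and Mir294, had at least 2 CPM in each pup, which was taken as detection. That is 6 of 10 members, beside 20.6% of all miRNA genes in the tables and 38.3% of those with a Mir symbol. The miR-302 members summed to 303 CPM in pup 1 (95% interval 288 to 319) and 383 CPM in pup 3 (368 to 398), or 343 ± 56.5 CPM (SD, n = 2). The miR-290 members summed to 11.4 CPM in pup 1 (8.62 to 14.8) and 12.2 CPM in pup 3 (9.60 to 15.2), or 11.8 ± 0.543 CPM (SD, n = 2). The pups thus lay further apart for the miR-302 sum than counting error allows, while their intervals overlapped for the miR-290 sum.

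**Figure D1:**
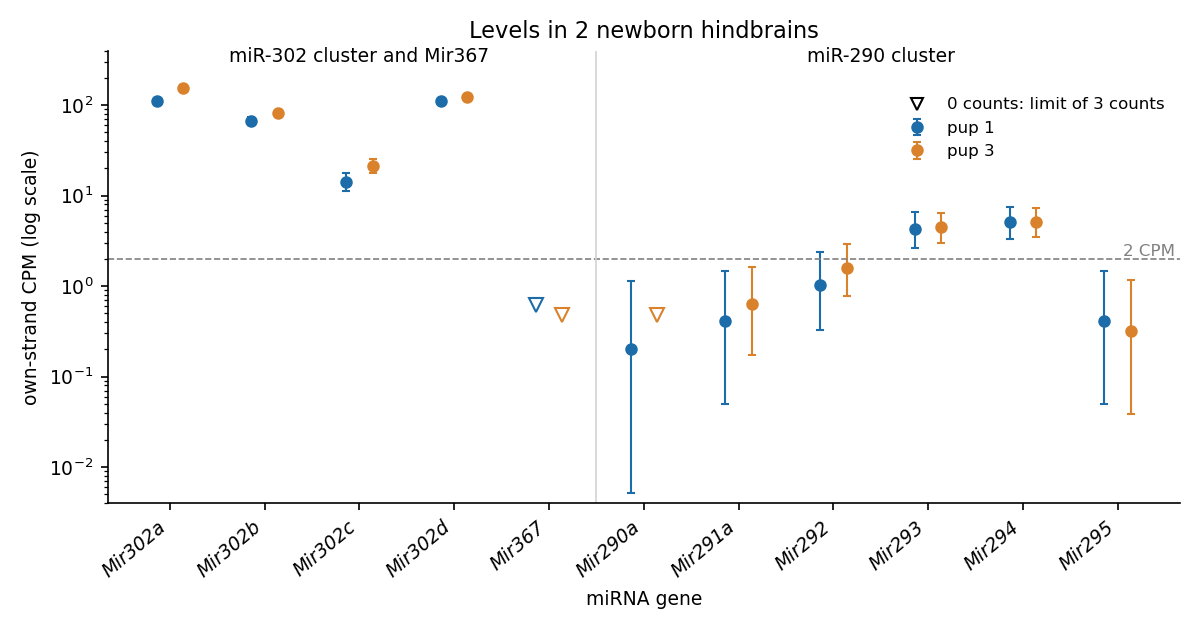
Own-strand CPM on a log axis for the 10 members and Mir367 in pup 1 and pup 3, with exact binomial 95% intervals, where open triangles mark 0 counts at the limit of 3 counts. The miR-302 members lie between 14.3 and 156 CPM, the miR-290 members at or under 5.13 CPM, and Mir367 had no count.

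Mir302a, with the miR-302 cluster's highest mean, had 543 counts in pup 1 and 975 in pup 3. Its level was 111 CPM in pup 1 and 156 CPM in pup 3, or 133 ± 32.2 CPM (SD, n = 2). It was higher in pup 3, and the intervals of the pups did not meet (102 to 120 CPM in pup 1, 147 to 166 CPM in pup 3). Mir302d, the last of the 4 along the transcript, had 545 counts in pup 1 and 770 in pup 3, which gave 111 and 123 CPM. It was thus level with Mir302a in pup 1 and below it in pup 3. Mir302b, the first hairpin, had 328 counts in pup 1 and 510 in pup 3, or 66.9 and 81.7 CPM. Mir302c, the second, had 70 counts in pup 1 and 133 in pup 3, or 14.3 and 21.3 CPM. Mir302c was the lowest of the 4 in each pup by a wide margin, with 4.71% of the miR-302 counts in pup 1 and 5.57% in pup 3.

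In both pups Mir302a and Mir302d together gave most of the miR-302 counts, while Mir302b came after them and Mir302c was last. Mir302a gave 36.5% of the cluster's counts in pup 1 (95% interval 34.1 to 39.0) and 40.8% in pup 3 (38.8 to 42.8). Mir302d gave 36.7% in pup 1 (34.22 to 39.2) and 32.2% in pup 3 (30.4 to 34.16), so the share of Mir302d was the one whose intervals did not meet. Mir302b gave 22.1% in pup 1 and 21.4% in pup 3. Level did not follow position, since the second hairpin was the lowest and the third and the fourth were the highest.

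Mir294, which carries the shared 3p seed and is a main miRNA of this cluster in mouse embryonic stem cells, led the miR-290 cluster. It had 25 counts in pup 1 and 32 in pup 3, or 5.10 and 5.13 CPM. Mir293, whose 3p seed differs, had 21 counts in pup 1 and 28 in pup 3, or 4.28 and 4.49 CPM. These 2 adjacent hairpins made up 82.1% of the miR-290 counts in pup 1 and 78.9% in pup 3. Mir292 had 5 counts in pup 1 and 10 in pup 3, or 1.02 and 1.60 CPM, under the detection level in both pups. The other members were near the limit of these libraries. Mir291a had 2 counts in pup 1 and 4 in pup 3, Mir295 had 2 in each, and Mir290a had 1 in pup 1 and 0 in pup 3. Their signal thus rests on at most 4 reads per pup, and for Mir290a on 1 read in all.

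**Figure D2:**
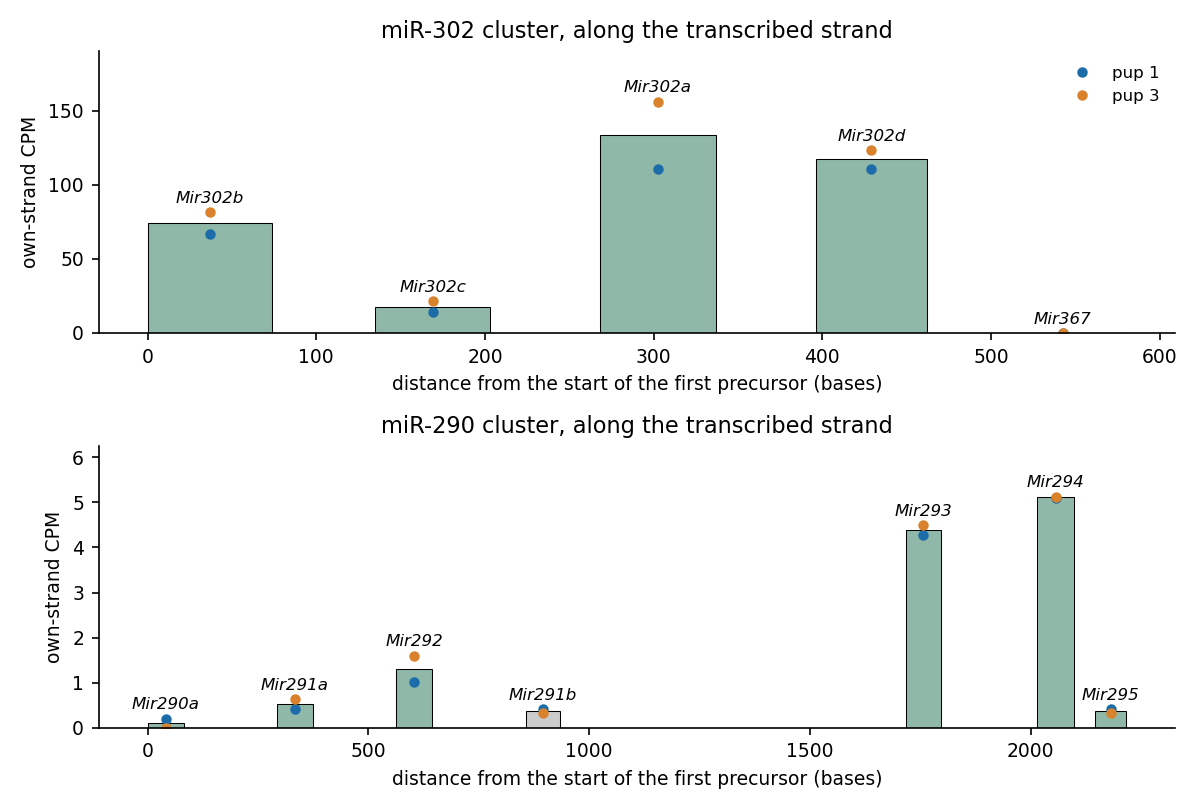
Own-strand CPM of each plus-strand hairpin against its distance in bases from the start of the first precursor of its cluster, with bars at the mean of the 2 pups, bar width at the precursor length, points for each pup and non-members in grey (Mir367 has no bar). Mir302c dips between higher neighbours, and Mir293 and Mir294 stand above the rest of the miR-290 cluster.

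Set against each other, the miR-302 counts were 26.5 times the miR-290 counts in pup 1 (95% interval 20.3 to 35.3) and 31.4 times in pup 3 (25.0 to 40.02). The miR-290 share of both clusters was 3.63% in pup 1 and 3.08% in pup 3, with overlapping intervals (2.75 to 4.69% and 2.44 to 3.85%). Adapter ligation captures some sequences better than others, and a ratio between genes holds that difference too. In whole hindbrain RNA, fewer cells of a type and less RNA per cell cannot be told apart.

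By mean level the members ran in the order Mir302a, Mir302d, Mir302b, Mir302c, Mir294, Mir293, Mir292, Mir291a, Mir295 and Mir290a. The ranges over the pups overlapped for 2 of the 9 neighbouring pairs, Mir302a with Mir302d and Mir291a with Mir295. The ranges of Mir294 and Mir293 did not overlap, but their 95% intervals did in each pup, at 5.11 ± 0.0238 CPM for Mir294 and 4.38 ± 0.147 CPM for Mir293 (SD, n = 2). Precursor lengths were close, and dividing by them left the order as it was. With 2 pups, the differences between neighbours were not tested.

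Mir302a was rank 221 of the 1973 genes by mean CPM, with Mir302d at 231, Mir302b at 249 and Mir302c at 290. Mir294 and Mir293 were at 356 and 370, among 407 detected genes. The median mean level was 4.75 CPM over the 10 members, 178 CPM over detected genes and 0 over all genes, since 1205 genes had no count in either pup. Each of the 4 miR-302 members was thus below the median of detected genes. With 2 libraries a likeness of pattern between genes cannot be measured, so only genes of similar level are named. Next to Mir302a were Mir758 at 134 ± 2.00 CPM and Mir192 at 141 ± 8.71 CPM above it, and Mir199b at 128 ± 12.7 CPM and Mir877 at 128 ± 44.4 CPM below it (SD, n = 2). Next to Mir294 were Mir208a and Mir449b above it and Mir201 and Mir7066 below it, at 5.05 to 5.18 CPM.

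**Figure D3:**
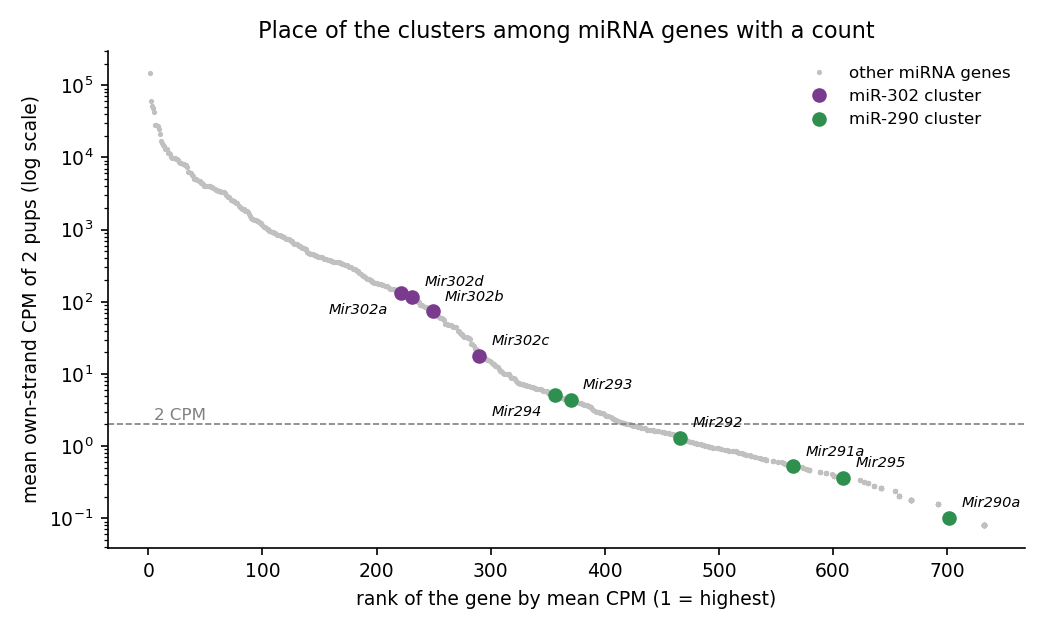
Mean own-strand CPM of the 2 pups on a log axis against the rank of each miRNA gene with a count, with miR-302 members in purple, miR-290 members in green and other genes in grey. The miR-302 members fall at ranks 221 to 290, and 4 of the 6 miR-290 members fall under the dashed line at 2 CPM.

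Mir367, the fifth hairpin of the miR-302 transcript, had no read in either library. It begins 505 bases from the start of the cluster. Its 3p miRNA has another seed, that of the miR-92 family, and is shown to set it apart from the other 4.
miR-367-3p: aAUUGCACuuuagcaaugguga
Taking 3 counts per library as the floor, Mir302a was at least 181-fold higher than Mir367 in pup 1 and at least 325-fold higher in pup 3. Even Mir302c, the lowest of the 4, was at least 23.3-fold higher in pup 1 and at least 44.3-fold higher in pup 3. Mir291b, a further plus-strand hairpin of the miR-290 cluster, had 2 counts in each pup, like Mir295. Mir290b and Mir292b, annotated on the minus strand over Mir290a and Mir292, are not analysed here. None of the 10 members, nor Mir367 or Mir291b, had an opposite-strand count in either pup. Over all genes, opposite-strand counts were 3.02% of gene counts in pup 1 and 3.39% in pup 3. Only 80 of the 1973 genes had any in either pup, so having none was usual.

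The 2 libraries were also compared gene by gene with a two-sided exact binomial test on counts, against the ratio of library sizes after TMM scaling (trimmed mean of M values). P-values were Benjamini-Hochberg adjusted over the 508 genes with 10 or more counts in sum, and a gene was called where the adjusted p fell under 0.05 with a difference of 2-fold or more. What is compared is the reads of these libraries, so the p-values carry counting error and nothing on conditions. Of the 7 members tested, none was called, beside 6.69% of all genes tested, 5.71% higher and 0.984% lower in pup 1. At any fold, 4 members passed the adjusted p, all of the miR-302 cluster and all lower in pup 1. Of all genes tested 47.6% passed at any fold, 23.8% in that direction. Hairpins of 1 transcript are not independent of each other.

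Log2 differences are pup 1 over pup 3 after adding a pseudocount of 1 CPM, with an SE from counting error. Mir302a differed by -0.63 (SE 0.08, exact binomial test, adjusted p = 2.48e-16) and Mir302b by -0.42 (SE 0.10, exact binomial test, adjusted p = 7.52e-05). Mir302c differed by -0.68 (SE 0.20, exact binomial test, adjusted p = 0.00174). Mir302d differed by -0.29 (SE 0.08, exact binomial test, adjusted p = 0.000831), and on library totals by -0.15 with an adjusted p of 0.105 in the same exact test. The miR-290 members differed by -0.12 for Mir294 (SE 0.32), -0.17 for Mir293 (SE 0.34) and -0.44 for Mir292 (SE 0.43), with exact binomial test adjusted p between 0.574 and 0.879. At 15 to 57 counts in sum these SE leave room for differences as large as those of the miR-302 members, so the clusters are not shown to differ in this. The median absolute difference was 0.42 over the 7 members tested and 0.30 over all genes tested.

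**Figure D4:**
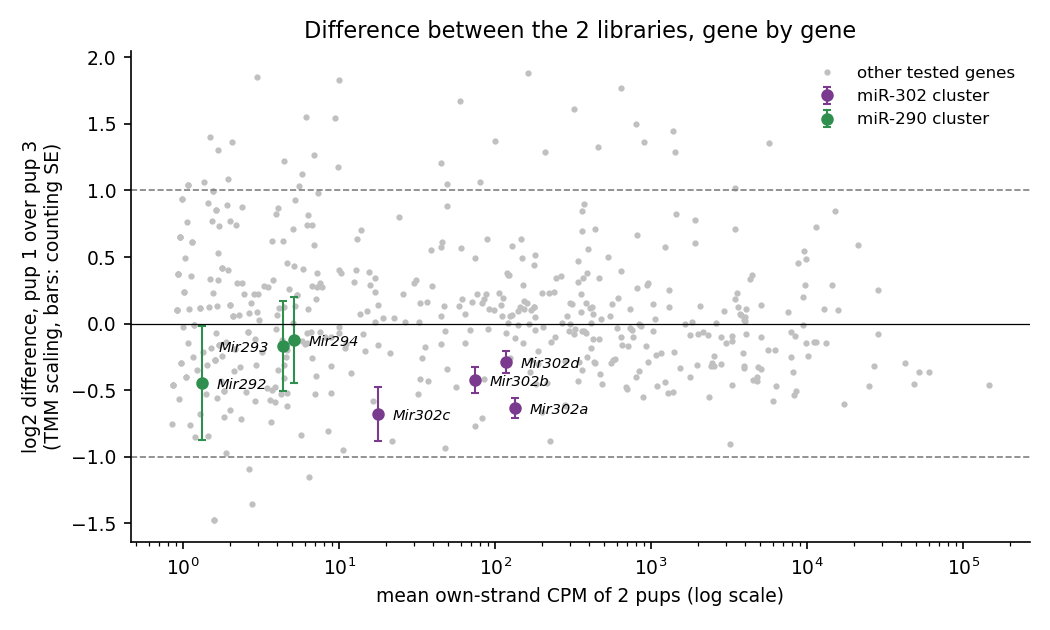
Log2 difference between the libraries, pup 1 over pup 3 on TMM scaling, against mean own-strand CPM on a log axis for the 508 tested genes, with members in colour, bars at the counting SE and dashed lines at 2-fold. The 4 miR-302 members lie between -0.29 and -0.68, inside the 2-fold lines and among many other genes.

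Library totals in place of TMM raise the log2 differences of abundant genes by 0.14, and those of rare genes by less because of the pseudocount (Mir292 was at -0.37 on library totals and at -0.44 on TMM). The median difference of all tested genes was 0.02 on TMM scaling. The sign of each of the 7 tested members held under TMM, library totals and DESeq2 size factors. On library totals, however, Mir294 was at -0.01 (SE 0.32) and Mir293 at -0.06 (SE 0.34), so their direction is not resolved. Sums of other marker lists, in CPM on library totals, also differed between the pups, with no test made of the sums. Lower sums in pup 1, the direction of the miR-302 members, were found for the epithelial list (121 CPM in pup 1 and 159 CPM in pup 3, with 4 of 5 genes lower) and for the vessel list (55322 CPM in pup 1 and 65476 CPM in pup 3, with 2 of 3 genes lower). The erythroid list had sums of 498 CPM in pup 1 and 308 CPM in pup 3, in the opposite direction, through Mir451a alone (461 CPM in pup 1 and 258 CPM in pup 3). Its other genes were lower in pup 1, with 16.1 CPM in pup 1 and 27.7 CPM in pup 3 for Mir144. For Mir486 the levels were 20.6 CPM in pup 1 and 22.0 CPM in pup 3. That difference was not beyond counting error (log2 -0.22 on TMM, SE 0.18, exact binomial test, adjusted p = 0.36). The sums of the Hox cluster, neural, choroid plexus and muscle lists were higher in pup 1 on library totals. These sums were not recomputed on TMM, which lowers such log2 differences by up to 0.14, so small excesses in pup 1 may not hold there. Mir206, the only muscle gene with a count, was at -0.001 on TMM. The part of these marker lists in the miR-302 difference was not tested.

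Shared sequence bears on the counts, because a read with several matching places in the genome is counted for no gene. Among the 9 member hairpins in the RefSeq table, Mir302a and Mir302b shared an identical stretch of 20 bases with each other, 18 of them in the 3p arm. Mir302d shared 17 bases with those 2, and Mir302c shared 16 bases with the other 3. These stretches lie within the 3p arms printed above for Mir302d and Mir302c, while that of Mir302a is not printed. A read that lies within such a stretch cannot be placed on a single miR-302 hairpin, so counts of single members are uncertain. In the miR-290 cluster, miR-291a-5p shared 20 of its 22 bases with Mir291b, so Mir291a may be undercounted. The hairpins of Mir290a, Mir292, Mir293, Mir294 and Mir295 shared no more than 13 bases with any hairpin in the table.

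Within the hindbrain, the miR-302 and miR-290 genes gave a minor part of the gene counts for miRNAs with a related seed. The letters AAGUGC, sought on the given strand within bases 1 to 9 of mature miRNAs, were found for 19 of 1058 miRNA genes in the RefSeq table (1.80%), 18 of them with a row in the count tables. Of these 18, 7 were members, with sums of 198 CPM in pup 1 and 233 CPM in pup 3. Another 11 genes, 7 of them detected, had sums of 26514 CPM in pup 1 and 22834 CPM in pup 3. Members thus gave 0.742% of this total in pup 1 and 1.01% in pup 3. That share leaves out Mir302a and Mir292, whose 3p sequences were not held. The sums join both arms of each hairpin, so reads of the arm with the motif were not counted apart. Most of the rest came from the miR-17 family, miRNAs of dividing progenitors, whose 6 genes had sums of 25394 CPM in pup 1 and 21842 CPM in pup 3. Among them was Mir17 at 11119 CPM in pup 1 and 8243 CPM in pup 3. No gene outside the 2 clusters had one of the member seeds of the RefSeq table together with a row in the count tables.

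Other lists were read beside the clusters. In the miR-106a-363 cluster, a paralog of miR-17-92, 4 of the 5 genes counted were detected, led by Mir363 at 189 ± 6.16 CPM (SD, n = 2), which lay above each of the 10 members. Of 4 miRNAs known to repress pluripotency factors, 3 were detected. Mir296 averaged 3004 ± 8.81 CPM, Mir134 1396 ± 50.3 CPM and Mir145a 354 ± 39.3 CPM (SD, n = 2), each above the highest member, and Mir470 had 2 counts in pup 1 and 0 in pup 3.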

How the data were processed

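For each library the authors deposited raw read counts of miRNA genes, on any strand, the own strand and the opposite strand, without pooling or normalization. They used assembly mm10 and annotation M4, per the text files deposited with the counts. Aligner and counter: not given in the sources used here. The first rows name no gene and stayed out of totals: reads at several places were 37.9% of all reads in pup 1 and 39.4% in pup 3, and unmapped reads 17.7% and 13.9%. Gene IDs were matched without version to GENCODE M21 on GRCm38 (1894 of 1973 matched). Counts were analysed with Python 3.11.15 and scipy 1.17.1. TMM factors came from edgeR 4.0.16 and size factors, as an alternative, from DESeq2 1.42.0. With 1 group, no model of conditions could be fitted, and an exact binomial test per gene was used. It was tried on simulated counts drawn with counting error only, which leave out any other spread between libraries. Intervals are exact Clopper-Pearson at 95%. Sequences are from RefSeq on GRCm38.p6, which held a hairpin for 9 members and 18 of their mature arms. The members, lists, tests and alternatives were chosen with earlier results of these data known. The rule for named genes took the 10 members, the genes of 4 related lists, and the 2 genes nearest in mean CPM above and below the highest member of each cluster.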

Additional observations from a re-analysis of the deposited data

How the results depend on the processing

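The miR-302 sum was 303 to 383 CPM and the miR-290 sum 11.4 to 12.2 CPM with either pup left out, and TMM, DESeq2 size factors or counts on any strand moved neither by more than 1 SD. Per 1000000 of all reads in the table, which adds unmapped and multi-place reads to the denominator, they were 145 and 4.96. Members detected in both pups numbered 4 at 10 CPM, beside 15.6% of all genes, 7 at 1 CPM, beside 23.2%, 7 at 5 counts, beside 23.9%, and 9 at 1 count, beside 662 of all genes (33.6%). With either pup left out, 6 members were detected. None of the members was called at 2-fold under other scalings, filters or strands. Without the fold threshold 4 members and 242 of all genes passed, and at 100 counts in sum 18 of all genes were called. The share of calls higher in pup 1 was 29 of 34 on TMM, 25 of 33 with DESeq2 size factors and 38 of 42 on library totals. Of 32 recomputed member differences 31 stayed on their side of the threshold and none turned its sign; Mir302d on library totals lost it, as given above. The order of neighbours held for 7 to 9 of 9 pairs in single pups, and for 9 per precursor base (added after seeing the data). A shared stretch of 16 bases in place of 20 took in 4 hairpins. No paired analysis was possible because both libraries belong to 1 group. Depth limits the low miR-290 members, which rest on 1 to 15 counts in sum.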
